A study of Caenorhabditis elegans with 2 samples.

Results

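The binding of EOR-1 was examined at 36 genes of the Ras-ERK pathway and of vulval induction in Caenorhabditis elegans. The genes were taken from a list of pathway members, and all 36 were matched by symbol among the 19973 nuclear protein-coding genes of the annotation. For each gene, regions were taken whose summit (the base of highest enrichment) lay inside the gene or up to 5 kb upstream of it. The study immunoprecipitated chromatin of whole L3 larvae and sequenced it, in 2 biological replicates of 1 group. The larvae, of both sexes and of unstated age, were of strain OP81. This strain carries the insertion wgIs81, which targets eor-1, and the mutation unc-119(ed3) on chromosome III. The immunoprecipitated protein was EOR-1 tagged with eGFP, and both replicates share the insertion and the mutation. A possible control is named in the labels and was not analysed here. There was no second condition, and the chromatin of all cell types was mixed. No expression was measured, so the cell types could not be checked against markers.

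In this pathway an EGF-like signal, LIN-3, from the anchor cell of the gonad activates the receptor LET-23 on vulval precursor cells. The adaptor SEM-5 and the exchange factor SOS-1 then activate the Ras protein LET-60, which signals through the kinases LIN-45 (Raf), MEK-2 (MEK) and MPK-1 (ERK) to nuclear factors. EOR-1, a zinc finger protein of the PLZF family, is known from genetics to act with its partner EOR-2 among those nuclear factors, downstream of MPK-1. An FGF branch with the receptor EGL-15 uses much of the same cascade.

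Each region carried a signal value made by the authors, whose scale they do not state, and was ranked by it. The pooled list and the lists of replicates 1 and 2 each held 30000 candidate regions, which include background as well as peaks. The optimal list held 285 regions judged reproducible by the irreproducible discovery rate, of which 256 were nuclear. These 256 were also the nuclear pooled regions of highest signal, from 52.7 to 384. The number of reads behind each value is unknown, so signals of different lists are set side by side and not averaged. Coordinates follow build ce11 and start at 1. Where no replicate is mentioned, a signal or rank was taken from the pooled list.

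EOR-1 had optimal regions at 3 of the 36 genes: gap-2 and lip-1, which encode negative regulators of the pathway, and egl-17, which encodes an FGF. The other 33 genes had none, including every gene of the core cascade from sem-5 to mpk-1 and every nuclear factor of the list. The share of 8.33% had an exact Clopper-Pearson 95% interval of 1.75% to 22.5%. Among all nuclear protein-coding genes 2.14% had an optimal summit in the same kind of window, a value inside that interval. The members had longer windows than other genes, with a median of 12173 bp against 7027 bp. Among the 24 members with windows of 10 kb or more, 1 (gap-2) had an optimal summit, against 3.62% of all genes with such windows. The optimal genes egl-17 and lip-1 had shorter windows, of 7634 bp and 8054 bp, and genes with shorter windows were not compared separately. Over all 36 members the background share lay inside the interval. The share was therefore not distinguishable from it at this number of genes, with window length not matched.

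None of the 3 optimal summits had a start of the listed gene as its closest transcript start. The sequences of the 3 regions are shown because they hold what lies under the summits in place of such a start. They are from the RefSeq genome of assembly WBcel235, which has the coordinates of ce11, on the forward strand. In the first 2 the capitals mark a tRNA gene. In the third they mark GAGAG and its reverse complement CTCTC.
egl-17, X:489820-490115: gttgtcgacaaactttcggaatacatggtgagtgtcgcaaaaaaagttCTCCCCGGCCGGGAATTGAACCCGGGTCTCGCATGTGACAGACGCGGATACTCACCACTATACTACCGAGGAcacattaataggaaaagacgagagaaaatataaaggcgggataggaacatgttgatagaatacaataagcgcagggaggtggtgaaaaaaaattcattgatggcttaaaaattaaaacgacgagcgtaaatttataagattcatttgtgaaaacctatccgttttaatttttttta
gap-2, X:9467682-9467977: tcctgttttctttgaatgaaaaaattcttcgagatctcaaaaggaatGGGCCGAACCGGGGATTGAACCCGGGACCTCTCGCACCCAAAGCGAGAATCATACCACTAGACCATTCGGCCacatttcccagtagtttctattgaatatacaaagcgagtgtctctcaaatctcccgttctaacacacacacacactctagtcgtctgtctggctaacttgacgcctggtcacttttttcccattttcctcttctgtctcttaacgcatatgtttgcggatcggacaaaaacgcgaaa
lip-1, IV:6839063-6839358: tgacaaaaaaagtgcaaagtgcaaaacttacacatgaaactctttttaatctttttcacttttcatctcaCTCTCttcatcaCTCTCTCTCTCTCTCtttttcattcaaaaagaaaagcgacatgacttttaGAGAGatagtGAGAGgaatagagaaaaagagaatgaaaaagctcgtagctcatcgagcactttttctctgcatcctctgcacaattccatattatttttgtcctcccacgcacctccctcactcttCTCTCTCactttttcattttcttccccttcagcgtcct

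The summit at egl-17 lay in the first intron of the gene, and the region also covered the end of the coding exon before it. Its signal was 88.0 (rank 95) in the pooled list, 42.9 (rank 112) in replicate 1 and 50.1 (rank 87) in replicate 2. Both replicates thus placed it among their strongest regions, and their summits were 1 bp and -6 bp from the pooled summit at 489968. EGL-17 guides the migrating sex myoblasts, and its gene is used as a marker of the primary vulval fate. The summit was 194 bp downstream of the closest egl-17 transcript start and is therefore counted below as a promoter summit. It was only 29 bp from the start of a tRNA-Asp gene, WBGene00023035 (X:489868-489939), which lies inside the intron on the reverse strand.

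The region at gap-2 had the highest signal of all members. It was 91.2 (rank 93) in the pooled list, 57.9 (rank 71) in replicate 1 and 34.6 (rank 176) in replicate 2. GAP-2 is a GTPase-activating protein that turns off LET-60. The summit, X:9467830, was 4640 bp upstream of gap-2 and 30 bp from the start of a tRNA-Pro gene, WBGene00014634 (X:9467729-9467800). The non-coding RNA gene ZK899.10 covers that tRNA gene on the other strand, with its nearer end 24 bp from the summit. A start of the coding gene ZK899.6 was slightly closer than that of gap-2, at 4485 bp. With summits within 200 bp of a tRNA gene left out, an alternative chosen after the values were seen, 1 of the 36 genes (lip-1) kept an optimal region.

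The region at lip-1 had no tRNA gene nearby. Its signal was 65.8 (rank 160) in the pooled list, 31.1 (rank 291) in replicate 1 and 31.5 (rank 219) in replicate 2. LIP-1 is a phosphatase that inactivates MPK-1, and its gene is known to be switched on by Notch signalling in secondary vulval cells. The summit, IV:6839211, was 3747 bp upstream of lip-1, whose transcript start was the closest of any coding gene. The start of the non-coding RNA gene C05B10.19 was 96 bp away. Another non-coding RNA gene, C05B10.21, lay inside the region on the other side, with its nearer end 12 bp from the summit. The region held 11 copies of GAGAG or CTCTC, counted with overlaps. As many or more were found in 4 of the 256 nuclear optimal regions and in 31 of the 29970 nuclear pooled regions (0.103%).

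**Figure D1:**
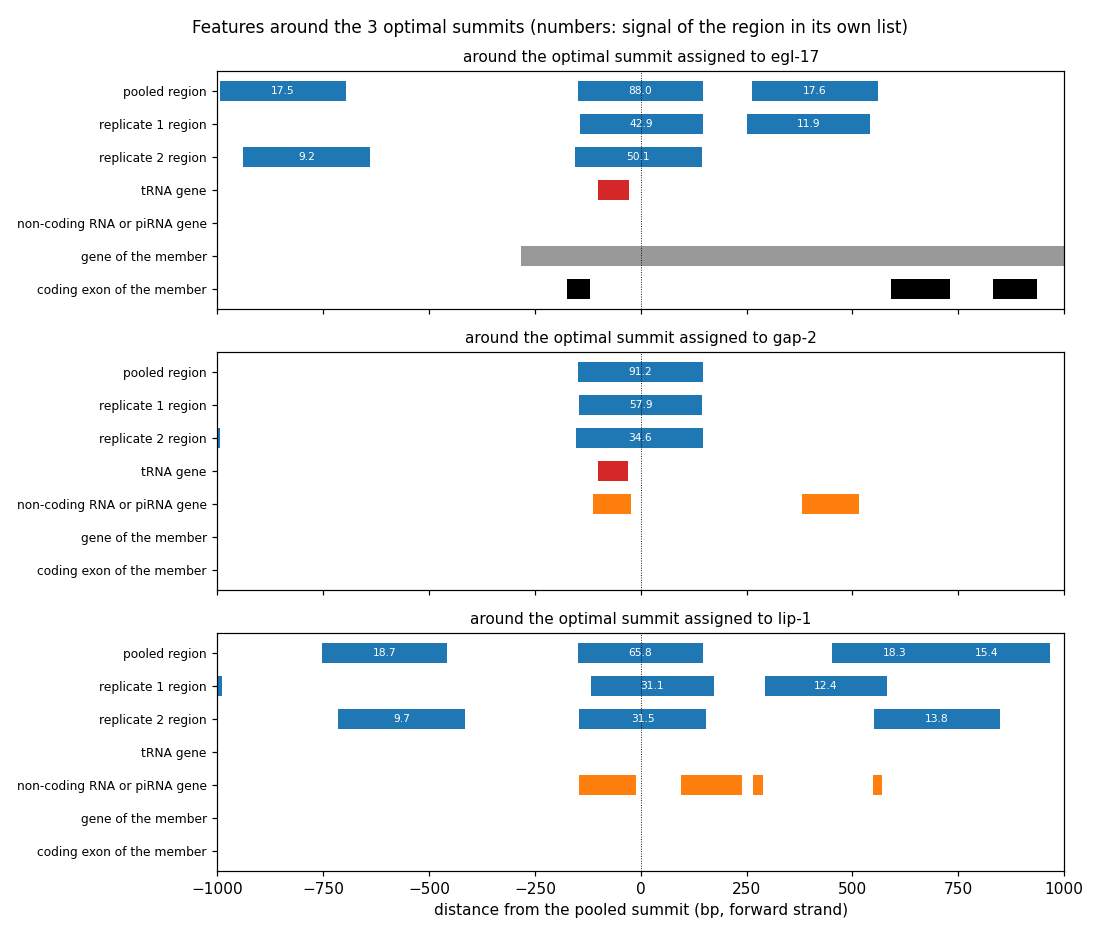
Features within 1000 bp of the 3 optimal summits, with the distance from the pooled summit in bp on the x axis and one lane per kind of feature on the y axis. Numbers on the blue bars are signals of regions in their own list. A tRNA gene lies just left of the summit at egl-17 and gap-2, and 2 non-coding RNA genes flank the summit at lip-1.

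Optimal regions within 200 bp of a tRNA gene were not particular to these genes. In the whole optimal list they numbered 14 of 256 (5.47%, exact 95% interval 3.02% to 9.01%). In the nuclear pooled list they were 163 of 29970 (0.544%), and among the pooled regions of the members they were the 2 at egl-17 and gap-2, of 256. The part of the tRNA genes in these signals was not tested. No member region lay as close to a small nuclear or small nucleolar RNA gene (0 of 256 for each, which allows a share of up to 1.17%). Over all nuclear pooled regions the shares were 0.06% and 0.22%, both below that limit.

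The limit of 5 kb decided which optimal regions were counted. Just inside it lay candidates of lip-1 (4932 bp upstream, signal 40.6), lin-10 (4885 bp, 28.5) and lin-2 (4843 bp, 28.7). Just outside lay those of let-23 (5038 bp, 16.3), lin-45 (5065 bp, 34.2) and dep-1 (5118 bp, 31.4). Within 10 kb of the members, 3 further optimal regions were found. One, X:9465774-9465914, lay 6611 bp upstream of gap-2 with a signal of 179 (rank 44), and had 87.8 (rank 50) and 88.2 (rank 47) in replicates 1 and 2. Its closest coding gene was again ZK899.6, at 2514 bp. A second, IV:6837231-6837526, lay 5579 bp upstream of lip-1 with a signal of 53.0 (20.3 in replicate 1, 33.2 in replicate 2). The third, III:4899957-4900252, lay 7091 bp upstream of rom-1 with a signal of 53.2 (24.3 and 27.5), but 403 bp from tag-340. Thus lip-1 and gap-2 each had a second optimal region beyond the limit.

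Candidates of lower signal were found at most members. In the pooled list 31 of 36 genes had at least 1 (86.1%, exact 95% interval 70.5% to 95.3%), against 57.2% of all nuclear protein-coding genes. In replicate 1 and in replicate 2 it was 32 genes each, against 63.8% and 63.7%. With windows of 10 kb or more it was 21 of 24 members (87.5%, exact 95% interval 67.6% to 97.3%), against 75.1% of such genes, which lies inside the interval. A candidate found in the pooled list and in both replicates was present at 30 of 36 genes, against 44.5% of all genes. The median window of all genes was shorter, and this count was not made for windows of 10 kb or more. The members together held 256 distinct pooled regions, the same number as there were nuclear optimal regions but a different set, and none was counted for more than 1 member. This was 48.0 per 100 kb of window, against 29.2 over the windows of all coding genes; the difference was not tested. The number per gene ran from 2 at gap-1 to 27 at soc-2, with 25 at gap-2 and 14 at mpk-1 and at ark-1.

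Their signals were those of the candidate list at large. The median over the 256 member regions was 19.5, against 19.4 over all nuclear pooled regions. Of the member regions, 163 (63.7%) had a nuclear rank beyond 10000, as did 66.6% of all nuclear regions. The strongest region of each member had a median of 29.9 over the 31 genes, against 26.1 over all coding genes with a candidate. A longer window gives more chances of a high value, and the difference was not tested. The strongest member region outside the optimal list, at lin-25, reached 45.1. All nuclear pooled regions outside that list lay below 52.7, the signal of its weakest nuclear region.

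**Figure D2:**
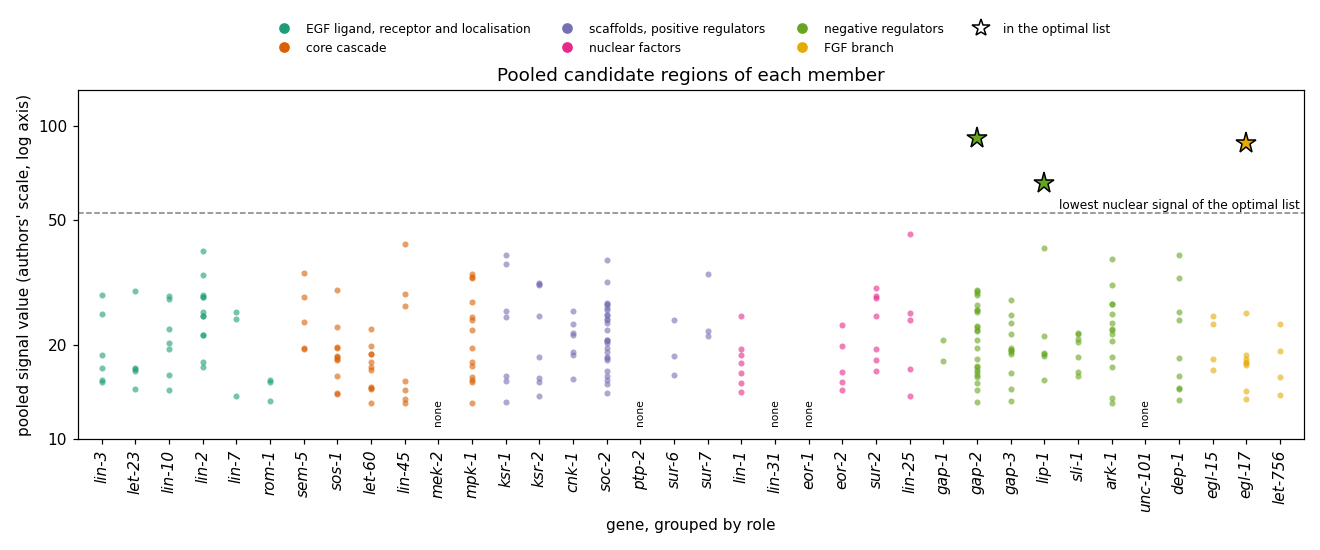
Pooled signal (authors' scale, log axis) of every candidate region of each of the 36 genes, grouped by role; stars are regions of the optimal list and the dashed line is the lowest nuclear signal of that list, 52.7. Only the stars at gap-2, lip-1 and egl-17 lie above the line, as no nuclear pooled region outside the optimal list does. Of the genes, 5 have no candidate.

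At the ligand and receptor level, 6 of 6 genes had candidates and none an optimal region. Of all nuclear protein-coding genes 57.2% had a pooled candidate, and of those with windows of 10 kb or more 75.1%. These shares are the background for each role below, and differences between roles, here and below, were not tested. For lin-3, the EGF ligand gene, the strongest candidate was an intronic one with a signal of 28.8 (17.2 in replicate 1, 12.6 in replicate 2). The receptor gene let-23 had its strongest, also intronic, at 29.6 (13.2 and 13.5). LIN-2, LIN-7 and LIN-10 form a complex that holds LET-23 at the basolateral membrane. At lin-2 an intronic region, X:12403140-12403435, had 39.7 (rank 885), but the replicates differed in its rank, with 14.8 (rank 8010) in replicate 1 and 25.9 (rank 458) in replicate 2. The strongest values of lin-10 and lin-7 were 28.5 and 25.4. The gene rom-1, for a rhomboid protease that helps the LIN-3 signal, had the lowest strongest value of the members with a candidate, 15.4, at a region absent from the replicate 2 list.

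In the core cascade 5 of 6 genes had candidates. The Raf gene lin-45 came highest, with a region 1159 bp upstream of its start, IV:6749583-6749878, of signal 42.0 (rank 683). It had 27.2 (rank 504) in replicate 1 and 17.6 (rank 2934) in replicate 2. At sem-5, the GRB2-like adaptor gene, the region X:7963614-7963909, 2039 bp upstream, had 33.9. That value came mainly with replicate 1, where the region had 24.8 (rank 778), while replicate 2 had 7.93 (rank 25382). The ERK gene mpk-1 had 33.5 at its strongest and sos-1, the exchange factor gene, had 29.9. At let-60, the Ras gene, 11 candidates were crowded into 7862 bp, yet none exceeded 22.4. They included 2 pairs of overlapping neighbours, and replicates 1 and 2 had 8 and 9 regions there. The MEK gene mek-2 had none in the pooled list or in either replicate.

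Among scaffolds and positive regulators 6 of 7 genes had candidates. The kinase scaffold gene ksr-1 had a region 915 bp upstream of its start, X:8274106-8274401, with 38.8 (18.2 in replicate 1, 20.1 in replicate 2). It was among the more even between replicates by rank, 3665 and 1521. The other scaffold gene, ksr-2, had 31.5. At soc-2, for a leucine-rich repeat protein that promotes Ras signalling, 27 candidates were spread along the window, and the strongest, IV:5127848-5128143 in an intron, had 37.3 (14.99 and 21.3). At sur-7, which encodes a protein of the cation diffusion facilitator family, a region 683 bp upstream of the start, X:16375757-16376052, had 33.7 (12.2 and 20.6). The values of cnk-1, a further scaffold gene, and of sur-6, a PP2A regulatory subunit gene, were 25.6 and 24.0, and the region at cnk-1 was absent from the replicate 1 list. For ptp-2, an SHP2-like phosphatase gene, there was no pooled candidate, and only 1 weak region in replicate 2 (7.51, rank 27400).

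Of the 6 nuclear factors 4 had candidates. LIN-25 and SUR-2, the latter a Mediator subunit, are needed for the output of the pathway. The region at lin-25, V:12649027-12649322, had 45.1 (rank 509), with 22.1 (rank 1386) in replicate 1 and 19.5 (rank 1800) in replicate 2. It lay 750 bp upstream of lin-25 but inside gpa-9, a G protein alpha subunit gene on the other strand, 138 bp from its start. The strongest values at sur-2 and at lin-1, the ETS factor gene, were 30.3 and 24.7, and the region at sur-2 was absent from the replicate 2 list. At eor-2 it was 23.2, at a summit closer to C44H4.6. The forkhead factor gene lin-31 had no pooled candidate, but replicate 1 alone had 2, the stronger at 11.9 (rank 14796). At eor-1 itself, the gene targeted by the insertion, no list had a candidate. Whether the insertion affected the lists at this gene was not tested, so its absence may not compare with that at other genes.

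Among the negative regulators 7 of 8 genes had candidates, against 57.2% of all coding genes and 75.1% of those with windows of 10 kb or more. Both of the upstream optimal regions, at gap-2 and lip-1, were assigned to this role, and neither was counted with a reach of 2000 bp. Besides gap-2 and lip-1, the highest were dep-1 and ark-1. The region upstream of dep-1, a receptor tyrosine phosphatase gene, at II:9022359-9022654 had 38.6, with 25.7 (rank 637) in replicate 1 and 12.8 (rank 9444) in replicate 2. The intronic one of ark-1, an Ack-type kinase gene, at IV:12628946-12629241 had 37.6 (20.2 and 17.9). The second candidate of lip-1 had 40.6 (18.8 and 19.9). The values of gap-3, of the Cbl gene sli-1 and of gap-1 were 27.7, 21.8 and 20.8. For unc-101, an AP-1 clathrin adaptor gene, no list had a candidate. In the FGF branch, egl-15 had 24.6 and let-756, a second FGF gene, 23.2, against the 88.0 of egl-17.

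**Figure D3:**
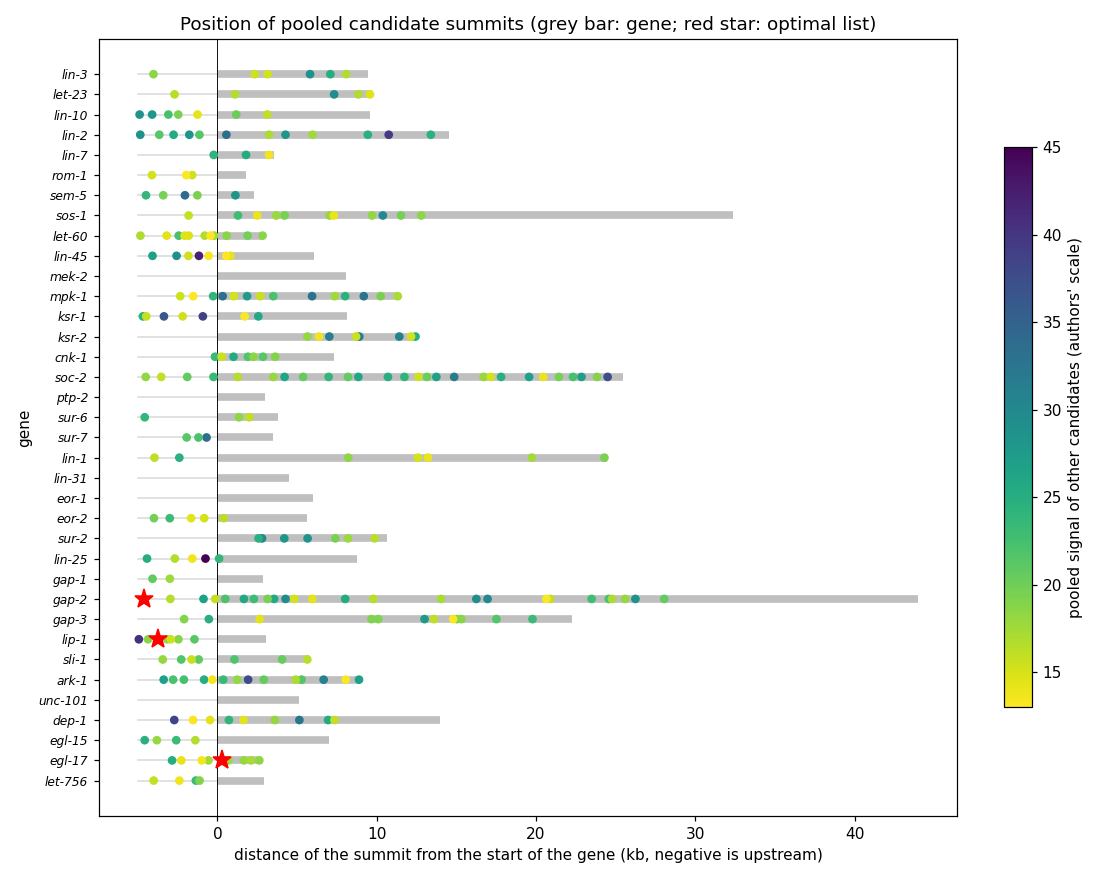
Position of each pooled candidate summit relative to the start of its gene (x axis, kb; negative is upstream), 1 row per gene, with the gene as a grey bar, optimal regions as red stars and other regions coloured by signal. The stars at gap-2 and lip-1 lie upstream, at 4640 and 3747 bp, and that of egl-17 lies just inside the gene.

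Most member regions lay away from the start of their gene. Of the 256, introns held 129 (50.4%), intergenic sequence upstream held 64 and promoters held 35 (13.7%), where a promoter ran from 1000 bp upstream to 200 bp downstream of any transcript start of the gene. Other genes in the upstream stretch held 16, untranslated regions 10 and coding exons 2, at dep-1 and let-23. At least 1 promoter candidate was found at 17 of the 36 genes (47.2%, exact 95% interval 30.4% to 64.5%), against 32.1% of all coding genes, a value inside that interval. The members had a median of 2 distinct transcript starts and all coding genes a median of 1. The gene itself had the closest coding transcript start for 202 regions (78.9%). For the strongest region of each gene this held at 21 of 31, and a neighbour was closer at the other 10, among them let-60, eor-2 and egl-15. The shares of regions by location and by closest start were not computed for all genes or for the window sequence. They therefore describe the member regions only.

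The replicates supported the member regions about as often as the whole list. Of the 256, 141 overlapped a region in both replicates (55.1%, exact 95% interval 48.8% to 61.3%), 107 in 1 and 8 in neither. Over all nuclear pooled regions the shares were 49.3%, 45.3% and 5.31%. Across the 141, replicate signals had a Spearman rho of 0.12, and of 0.06 across the 138 outside the optimal list. The regions share libraries, so no p is given. Only regions present in the pooled list and in both replicate lists entered, which narrows the range of signals. Some neighbouring pooled regions were matched to the same replicate region. The 3 optimal regions had been selected as reproducible. No rho was computed over all nuclear pooled regions, so the low values are not shown to be particular to the members. Several regions were strong in 1 replicate only. In the promoter of egl-15 replicate 1 had 27.6 (rank 474), at X:11015407-11015696, with no overlapping region in replicate 2 or in the pooled list. Near an internal start of gap-2, at X:9502361-9502660, replicate 2 had 28.2 (rank 335), with none in replicate 1 or in the pooled list.

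**Figure D4:**
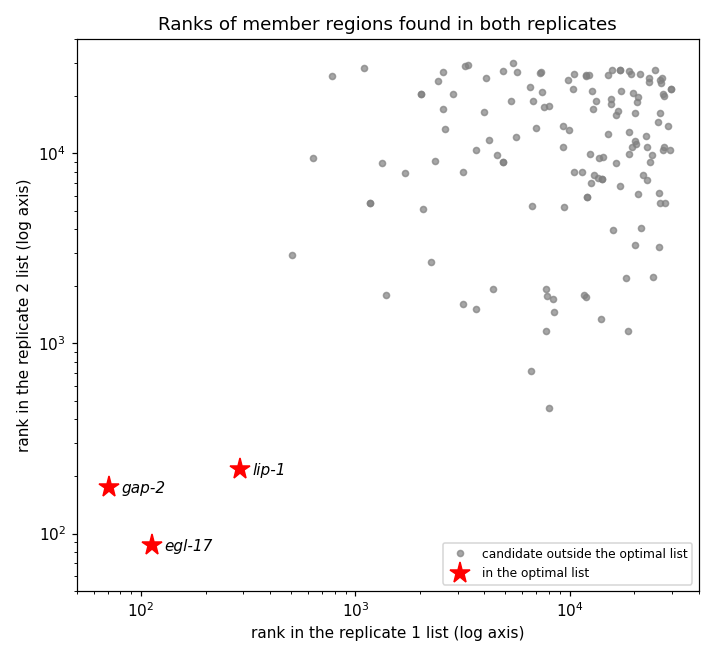
Rank in the replicate 1 list (x axis, log) against rank in the replicate 2 list (y axis, log) of the 141 member regions found in both. The 3 optimal regions, which had been selected as reproducible, lie at ranks from 71 to 291 in both lists, apart from the scattered remainder.

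A motif recalled from general knowledge of EOR-1 was absent from the member summits. No file used here gives the motif, so whether its words are those that EOR-1 binds was not tested. It was searched as either of the words GAGACGCAG and AGACGCAGA, which overlap by 8 bases, on both strands within 50 bp of each summit. It was found at 0 of the 256 member regions (which allows a share of up to 1.17%), against 0.38% of all nuclear pooled regions and 11.7% (30) of the nuclear optimal ones. In the pooled list it was most frequent at the top, with 16 of the first 100 nuclear regions and 14 of the next 200. The members had 3 regions among those 300. The shorter word GAGAG was searched in the same way and lay at 22 member summits (8.59%), against 7.03% of all nuclear pooled regions. All 3 optimal regions had it, as did 84 of the 256 nuclear optimal regions (32.8%).

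The motif did occur in the windows, away from the summits. At least 1 copy lay in the windows of 16 of 36 members (44.4%, exact 95% interval 27.9% to 61.9%), against 27.2% of all coding genes, whose windows were shorter. They formed 32 distinct sites, of which 18 were in introns and 7 in promoters, with 7 sites at gap-3 and 4 each at soc-2 and sos-1. Only 2 sites, at ark-1 and soc-2, lay inside a pooled region, 135 bp and 141 bp from its summit. The site at ark-1 lay within 50 bp of a summit in replicate 2 alone (signal 14.1, rank 6990). The site at cnk-1, 359 bp upstream of the gene, was covered only by a region of replicate 2. One of the gap-3 sites, 849 bp upstream of the gene, was covered only by a region of replicate 1.

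Some of these sites are shown because they match the motif and yet lie outside strong regions, with the matching bases in capitals on the forward strand of WBcel235. The site in the lin-3 promoter, 174 bp upstream of the gene, was 2513 bp from the nearest pooled summit. That at ark-1 lay upstream of the gene in a region of signal 22.2. That inside eor-1, near an internal transcript start, was 35364 bp from the nearest pooled summit, where the median over all sites was 824 bp. As eor-1 is the gene targeted by the insertion, this distance may not compare with those at other genes, which was not tested.
lin-3, IV:11054105-11054164: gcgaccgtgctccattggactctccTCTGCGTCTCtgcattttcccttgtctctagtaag
ark-1, IV:12633909-12633968: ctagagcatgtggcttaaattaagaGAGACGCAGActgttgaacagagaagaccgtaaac
eor-1, IV:4795342-4795400: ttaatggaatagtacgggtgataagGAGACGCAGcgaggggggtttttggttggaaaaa

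Further genes of the pathway and of vulval development were examined in the same way. This second list held 56 genes, among them the Notch receptor lin-12, the Hox gene lin-39, further Ras family members and the synMuv genes, which act against vulval induction. Of the 55 that were matched, 2 had an optimal region (3.64%) and 36 a pooled candidate (65.5%). Their median strongest signal was 28.0 and their median window 10228 bp. Over all nuclear protein-coding genes the shares were 2.14% and 57.2%, with a median window of 7027 bp, and the differences were not tested. The synMuv gene lin-54, for a DNA-binding subunit of the DRM complex, had its optimal region 165 bp upstream of its start, at IV:13240731-13241026. The signal was 53.9, with 37.0 (rank 159) in replicate 1 and 20.7 (rank 1342) in replicate 2. For hpl-2, an HP1 gene, the summit at III:10759138-10759433 had 71.0 (39.7 and 30.1). Its position relative to the hpl-2 start was -3756 bp, and it was 21 bp from a start of tasp-1. No pooled candidate was found at 19 of the 55, including lag-2, lin-15B and let-418.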

How the data were processed

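Chromatin immunoprecipitation sequencing of 2 biological replicates in 1 group was analysed from deposited region lists in build ce11. Per the labels, libraries held fragments of 150 to 350 bp. Per the deposited README files, the candidate lists derive from the alignments of 1 or both replicates and a further file that is not described, and the optimal list derives from the 3 candidate lists. The deposited signal value has no stated scale, and the deposited −log10 q value was used in 1 alternative. The sources used here give no aligner, caller, threshold of the optimal list or read depth. The control and the ce10 lists were not analysed here. The largest region ends fitted the WBcel235 chromosome lengths.

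Genes came from Ensembl release 115 and sequences from RefSeq. Summits were assigned to genes, ranked over the whole list (mitochondrial regions included), and matched between lists by an overlap of 1 bp or more. The members, lists and the motif were chosen with earlier results of these data known. No test across genes was made: counts stand beside those of all nuclear coding genes, with exact Clopper-Pearson 95% intervals. Intervals, and the limit of 3 counts for a count of 0, cover counting error only. Genes described fully are those with optimal regions, the 12 with the highest pooled signal and those with the motif in a region; the replicate-only regions, the 3 sites shown and other single regions were chosen after their values were seen. Assignment and motif search were tested on simulated data. The scripts used Python 3.11.15 with SciPy 1.17.1, pandas 2.3.3, matplotlib 3.10.9 and numpy 2.4.6.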

Additional observations from a re-analysis of the deposited data

How the results depend on the processing

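The count of members with an optimal region depended on how regions were tied to genes. It was 1 (egl-17) with an upstream reach of 2000 bp and of 1000 bp, 0 when a region counted only for the closest transcript start of any gene, and 1 without summits within 200 bp of a tRNA gene. It was 4 with a reach of 10000 bp, and 3 when overlap in place of the summit counted or only the highest q value. It was 2 to 3 when optimal regions had to overlap the 285 strongest regions of 1 replicate, since lip-1 was below those of replicate 1. The optimal list itself still derived from both replicates, so this does not show the count without 1 of them. The 31 genes with a pooled candidate became 3 when the lowest nuclear optimal signal was required, which only selects the nuclear optimal regions again. Under the other settings they numbered 26 to 33. Genes with a candidate in both replicates numbered 23 to 30, and 31 when either replicate was left out and the other alone was required. The motif count was 0 to 1 with a replicate left out, and 0 within 100 bp of the summit and with the word AGACGCAG. The median strongest signal was 29.2 with a reach of 2000 bp, where 20 of 31 genes kept the same value, and 16.5 to 18.6 in the list of a single replicate, whose scale may differ. Of the further pathway genes, 1 had an optimal region with a reach of 2000 bp. No paired analysis was possible because there was 1 group. The tRNA setting, those that left out a replicate for shared candidates and for signals, and the shorter reach for further genes were chosen after the data were seen. Depth was not known, so absence from a list is no limit on binding.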
